A study of Mus musculus with 4 samples.

Results

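The 10 genes described here encode receptors and co-receptors for bone morphogenetic proteins (BMPs) and activins: the type I receptors Bmpr1a, Bmpr1b, Acvr1, Acvr1b and Acvrl1, the type II receptors Bmpr2, Acvr2a and Acvr2b, and the co-receptors Eng and Rgmb. Every probe set whose platform annotation gives exactly 1 of these symbols was taken, which gave 32 of the 45037 probe sets that are not array controls, and 10 of the 18193 genes named by a probe set of their own. One more probe set, annotated to Orc4 and Acvr2a together, was left out. RNA came from E14Tg2A.4 cells, a mouse embryonic stem cell line, on 4 one-colour Affymetrix arrays. On 2 arrays the cells had received BMP-2 (25 ng/ml, 1 h), and the other 2 were untreated controls, whose titles give no time. Both groups are one line, and the medium is not given in the sources used here.

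BMP dimers bind a complex of type I and type II receptor serine/threonine kinases on the cell surface. The type II kinase phosphorylates the type I receptor, which then phosphorylates SMAD1, SMAD5 and SMAD9 (for BMP receptors) or SMAD2 and SMAD3 (for activin and Nodal receptors). In embryonic stem cells, BMP signalling acts together with LIF to maintain self-renewal through Id genes, while activin and Nodal signal through SMAD2 and SMAD3.

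Values are MAS5 signals, a linear brightness per probe set that the authors deposited. The median array signal was 81.8 and 94.9 with BMP-2 (replicates 1 and 2), against 82.5 and 94.6 without. Probe sets bind with different strength, so a level is compared between arrays and no order of level between genes is drawn. The labels do not say whether replicates were separate cultures. The p-values therefore reflect array-to-array spread that could be purely technical. One array stood apart in a control measure: the 3 probe sets for 18S ribosomal RNA on untreated replicate 2 read 3.94 to 6.11 times the highest of the other arrays. Without that array 0 receptor probe sets passed, as with it. The difference of Acvr2a 1451004_at was then 0.15 log2 in place of 0.70, and those of Acvr1b 1422098_at and Acvr2b 1439856_at turned negative, at -0.088 and -0.14. The cell type was checked with 9 stem cell marker genes, Pou5f1, Nanog and Sox2 among them, and all 9 lay above the signal limit on both untreated arrays. Their summed signal ran from 93537 to 98697 with BMP-2 and from 93585 to 98171 without. Of 8 fibroblast markers 2 (Col1a2 and Thy1) lay above the limit, and Col1a1, Col3a1, Dcn, Lum, Pdgfrb and Postn did not. Their summed signal was 545 and 659 with BMP-2, against 594 and 591 without. Of 5 blood markers 3 lay above the limit, Ptprc not among them, and of 6 extraembryonic endoderm markers 4 did. The cells responded to the ligand: Id1, Id2 and Id3, helix-loop-helix inhibitors and known early BMP targets, rose by 1.65, 1.76 and 1.73 log2 (limma adjusted p = 2.0e-05, 3.6e-05 and 3.6e-05). These calls were lost when the spread was modelled without its intensity trend (limma adjusted p = 0.859 for each), with the same differences.

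The signal of these receptors in untreated cells was set against a low limit and against tissue-restricted genes. The limit used is the 40th percentile of the mean log2 signal over all probe sets, a signal of 53.0. On both untreated arrays 22 of the 32 receptor probe sets lay above it, and they represent 9 of the 10 genes. Among all probe sets 57.3% lay above it. The gene without a probe set above it was Acvrl1, the receptor for BMP9 and BMP10 best known from endothelium. This limit is a weak sign of expression, since 15 of 31 tissue-restricted genes (such as Myh6 of heart and Pomc of pituitary) also had a probe set above it. Their probe sets had a 95th percentile of 173 in untreated cells. Above that level on both untreated arrays lay 13 receptor probe sets from 8 genes, and Bmpr1b joined Acvrl1 among those without one. Of all probe sets, 35.5% lay above it. The share over all genes was not worked out for either level, and a gene with several probe sets has more ways to pass. The gene counts are thus no sign that receptors stand out from other genes. The plot of signals by array shows every probe set, and the plot of untreated brightness sets them beside the stem cell markers and the tissue-restricted genes.

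**Figure D1:**
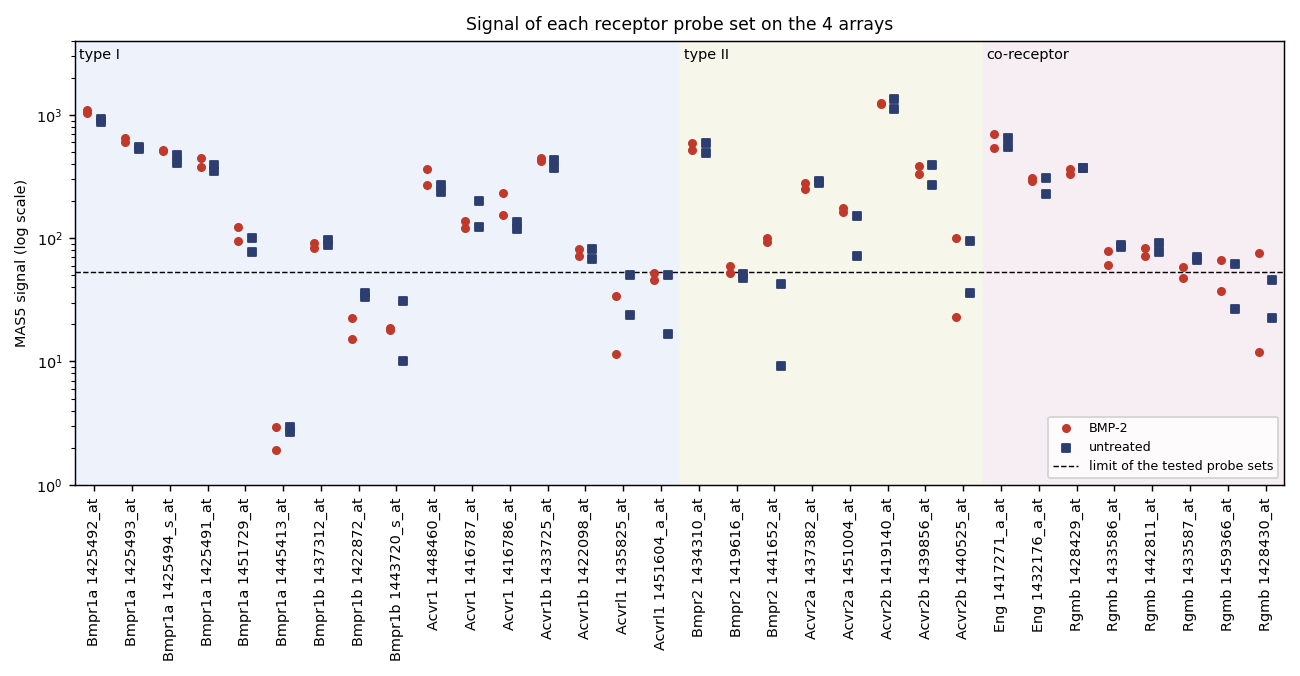
MAS5 signal on a log scale for each of the 32 receptor probe sets, grouped by role, with BMP-2 arrays as circles left of untreated arrays as squares (2 each). The dashed line is the signal limit of 53.0, and the bright probe sets of Bmpr1a, Bmpr2, Acvr2b and Eng lie well above it while both Acvrl1 probe sets lie below it on all 4 arrays.

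**Figure D2:**
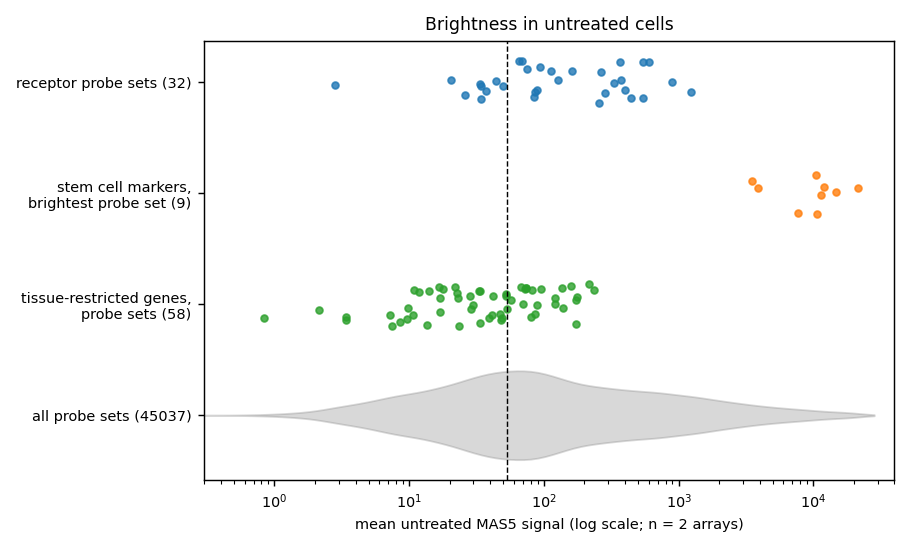
Mean untreated MAS5 signal on a log scale, as points for 32 receptor probe sets, the brightest probe set of 9 stem cell markers and 58 probe sets of tissue-restricted genes, and as a density for all 45037 probe sets. The vertical position within a row is random, the dashed line is the signal limit of 53.0, and the brightest tissue-restricted probe set lies at 236.

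No receptor or co-receptor probe set passed the test for a difference after 1 h of BMP-2. The limma fit over all arrays tested 22 of the 32 probe sets, which represent 9 genes. The other 10 had a mean log2 signal over the 4 arrays below the limit. Of the 22, 0 passed an adjusted p of 0.05, against 5 of 27022 (0.0185%) over all tested probe sets. At an unadjusted p under 0.05 there was 1 of 22, where the share over all tested probe sets was 3.07%. Every receptor probe set had an adjusted p of 1.00. The groups did not overlap for 8 of 22, 5 with BMP-2 higher and 3 lower, where 28.4% of all tested probe sets did not overlap (15.9% higher and 12.5% lower). Differences ran from -0.38 to 0.70 log2 with a median of 0.085, beside a median of 0.0076 over all tested probe sets. Without the filter on dim signals all 32 were tested and again 0 passed, with 2 at an unadjusted p under 0.05. These 2 were Bmpr2 1441652_at and Bmpr1a 1425492_at (interval 0.014 to 0.46 log2). Acvr1 1416786_at, the 1 of 22 in the fit with the filter, was not among them (interval -0.028 to 1.19 log2). A permutation of labels over 2 against 2 arrays cannot give a two-sided p below 0.333, so none is given for a single gene.

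The arrays limit how small a change could be seen. The 95% interval of the difference lay inside 1.5-fold either way for 11 of the 22 probe sets, and inside 1 log2 either way for 18. For the other 4, on Acvr1, Acvr2a and Rgmb (2 probe sets), the interval reached past 1 log2 on one side. These intervals are unadjusted and are not limits of detection for the adjusted threshold. A difference whose interval lay far from 0 could be missed too. Smad6 differed by 1.27 log2 (interval 0.90 to 1.65) and missed the threshold, with a limma adjusted p of 0.062. A missed threshold does not show that a level was the same.

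**Figure D3:**
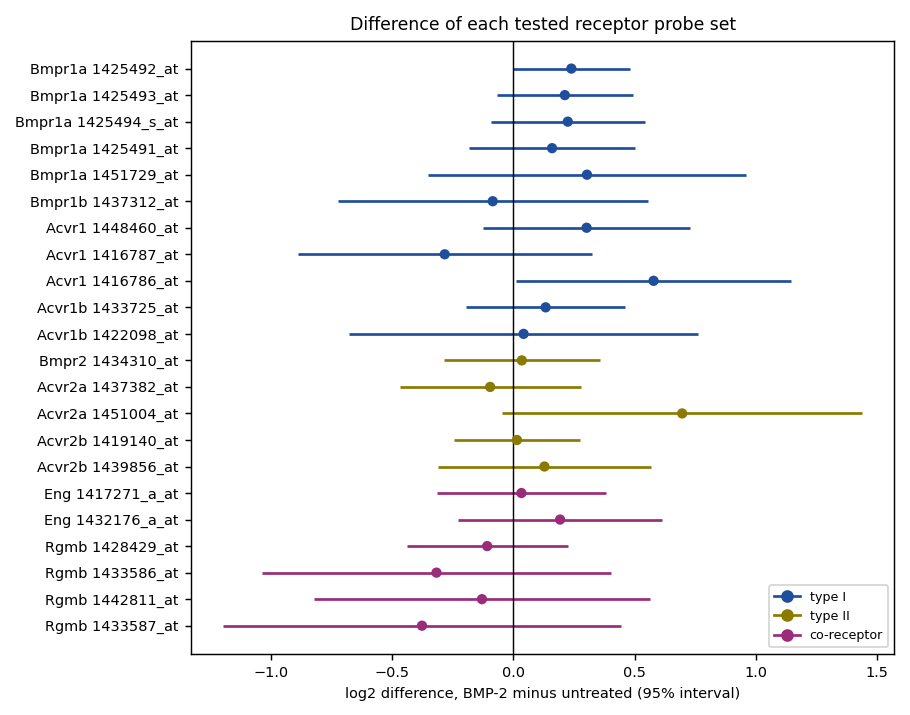
Log2 difference, BMP-2 minus untreated, for the 22 tested receptor probe sets, with points as the limma estimate and lines as 95% intervals, coloured by role. The interval of Acvr1 probe set 1416786_at, from 0.011 to 1.15, is the only one that does not cover 0.

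Among type I receptors, 9 of 11 tested probe sets had a positive difference and 2 a negative one, with a median of 0.21 log2, and 0 were called. Over all tested probe sets 52.2% had a positive difference. Of the 11, 5 were Bmpr1a probe sets made from 1 sequence and 3 were Acvr1 probe sets made from 1 sequence. The count and the median thus mostly repeat 2 genes and do not describe the type I receptors as a class. Bmpr1a (ALK3) encodes the main type I receptor for BMP2 and BMP4. Its probe set 1425492_at read 1089.5 and 1034 with BMP-2, against 881 and 919 untreated. Both treated arrays lay above both untreated arrays, with means of 1062 ± 39.2 and 899.6 ± 27.0 (SD, n = 2 each). The difference was 0.24 ± 0.11 log2 (SE, interval -0.0019 to 0.48, limma adjusted p = 1.00).

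The groups of Bmpr1a did not overlap on the next 2 probe sets either. Probe set 1425493_at read 606 and 644 with BMP-2, against 529.7 and 549 untreated (0.21 log2). Probe set 1425494_s_at, which the array's naming marks as matching more than a single transcript, read 509 and 515 with BMP-2, against 475 and 405 untreated (0.22 log2). On a further pair of Bmpr1a probe sets the groups overlapped. Probe set 1425491_at read 382 and 444 with BMP-2, against 349 and 389.7 untreated (0.16 log2). Probe set 1451729_at read 95.8 and 124 with BMP-2, against 100.4 and 77.8 untreated (0.30 log2). Its untreated brightness is within the range of the tissue-restricted genes. All 5 tested Bmpr1a probe sets thus had a positive difference, but they were all made from 1 sequence in the platform annotation and were read on the same 4 arrays, so they are not independent measurements. Their mean gave 0.23 log2 (interval -0.048 to 0.50, limma adjusted p = 1.00 over 12976 genes). A sixth probe set, 1445413_at, was at the bottom of the array with 1.92 and 2.96 with BMP-2, against 2.70 and 2.97 untreated.

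Bmpr1b (ALK6), the close relative of Bmpr1a known from cartilage, limb and ovary, had 1 of its 3 probe sets above the limit. Probe set 1437312_at read 83.4 and 92.3 with BMP-2, against 97.5 and 88.9 untreated, with overlap (-0.086 log2, interval -0.73 to 0.55). That brightness is within the range of the tissue-restricted genes. The other Bmpr1b probe sets were below the limit on all 4 arrays. Probe set 1422872_at read 22.6 and 15.2 with BMP-2, against 33.1 and 35.7 untreated, without overlap. Probe set 1443720_s_at read 17.9 and 18.8 with BMP-2, against 10.1 and 30.9 untreated, with overlap.

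Sequence before the gene start is given as a further feature of these genes. RefSeq windows (GRCm38.p6) were taken for 9 of the 10 genes; Acvrl1 had no entry. The 250 bases upstream of the start are shown for the type I receptor Bmpr1a, for its relative Bmpr1b (the first of its 3 annotated starts) and for the type II receptor Bmpr2, each 5′ to 3′ on the gene's strand with every CpG in capitals.
Bmpr1a, chr14:34502547-34502796, minus strand: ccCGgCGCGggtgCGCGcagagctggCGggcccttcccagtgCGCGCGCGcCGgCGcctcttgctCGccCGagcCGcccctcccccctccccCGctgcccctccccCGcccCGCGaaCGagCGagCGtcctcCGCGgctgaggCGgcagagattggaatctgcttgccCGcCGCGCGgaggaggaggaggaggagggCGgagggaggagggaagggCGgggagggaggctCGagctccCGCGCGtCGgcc
Bmpr2, chr1:59764029-59764278, plus strand: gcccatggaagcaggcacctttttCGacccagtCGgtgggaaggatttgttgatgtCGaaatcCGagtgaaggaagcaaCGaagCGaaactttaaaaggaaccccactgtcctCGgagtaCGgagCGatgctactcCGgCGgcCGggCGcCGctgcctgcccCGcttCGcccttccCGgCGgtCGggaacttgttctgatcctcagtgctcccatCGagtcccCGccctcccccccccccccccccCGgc
Bmpr1b, chr3:141982265-141982514, minus strand: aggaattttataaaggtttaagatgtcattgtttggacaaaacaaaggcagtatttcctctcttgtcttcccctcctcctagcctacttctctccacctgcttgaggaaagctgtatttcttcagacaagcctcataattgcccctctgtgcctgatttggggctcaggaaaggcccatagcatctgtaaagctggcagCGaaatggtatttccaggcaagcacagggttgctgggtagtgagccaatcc
The Bmpr1a window held 36 CpGs and the Bmpr2 window 22, while the Bmpr1b window held 1. Its other 2 starts held 5 each, and the median over 32851 such windows was 6. Among the other receptors, Acvr2a held 49, Acvr1 46, Acvr1b 42 and Acvr2b 24, Rgmb held 9, 27 and 18 at its 3 starts, and Eng held 4. The letters GGCGCC, to which SMAD1 and SMAD5 complexes are known to bind and which read the same on both strands, occurred in 3 of the 13 receptor windows (Bmpr1a, Bmpr2 and 1 Rgmb start) and in 9.59% of all windows. The short SMAD letters GTCT, on either strand, occurred in 11 of 13 and in 82.9% of all windows. Such matches describe letters and not binding.

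Acvr1 (ALK2), a type I receptor for BMP6 and BMP7 that also binds activin, had 3 probe sets above the limit, and they did not move together. Probe set 1416786_at read 235 and 154 with BMP-2, against 119 and 136 untreated. Its untreated brightness is within the range of the tissue-restricted genes. Both treated arrays lay above the untreated ones, with replicate 1 well above replicate 2. Its difference of 0.58 ± 0.26 log2 (SE, interval 0.011 to 1.15, limma adjusted p = 1.00) was the only one of the 22 past an unadjusted threshold of 0.05. It ran from 0.27 log2 without BMP-2 replicate 1 to 0.88 without BMP-2 replicate 2. Probe set 1448460_at read 270.4 and 364 with BMP-2, against 239 and 272 untreated (0.30 log2, overlapping). Probe set 1416787_at lay the other way, at 122 and 138 with BMP-2 against 202 and 124 untreated (-0.28 log2, overlapping). Its mean untreated brightness is within that range too. All 3 were made from 1 sequence in the platform annotation. Their mean was 0.20 log2 (interval -0.18 to 0.58).

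Acvr1b (ALK4), the type I receptor through which activin and Nodal signal, was bright on 1 of 2 probe sets. Probe set 1433725_at read 426 and 448 with BMP-2, against 428 and 370.3 untreated (0.13 log2, interval -0.20 to 0.46). Probe set 1422098_at, within the range of the tissue-restricted genes, read 71.8 and 81.7 with BMP-2, against 81.4 and 68.0 untreated (0.042 log2). The groups overlapped on both. Acvrl1 (ALK1) lay below the limit on both probe sets and all 4 arrays. Probe set 1435825_at read 11.4 and 34.3 with BMP-2, against 50.4 and 23.9 untreated. Probe set 1451604_a_at read 46.1 and 52.2 with BMP-2, against 16.7 and 50.1 untreated. On both, the untreated arrays lay further apart than the means of the groups.

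Of 5 tested type II receptor probe sets, 4 had a positive difference and 1 a negative one, with a median of 0.034 log2, and 0 were called. Bmpr2 encodes the type II receptor dedicated to BMPs. Its bright probe set 1434310_at read 517 and 593 with BMP-2, against 495 and 589.7 untreated. Replicate 1 was lower than replicate 2 in both groups, and the groups overlapped (0.034 ± 0.15 log2, SE, interval -0.29 to 0.36). The other Bmpr2 probe sets were not tested. Probe set 1419616_at lay at the limit, with 52.0 and 59.0 with BMP-2 against 51.3 and 47.7 untreated. Its groups did not overlap, with BMP-2 higher. Probe set 1441652_at read 100.4 and 93.5 with BMP-2, against 9.26 and 42.3 untreated. Its groups stood apart, but both untreated signals lay below the limit. In the limma fit without a filter, where it was 1 of 2 receptor probe sets at an unadjusted p under 0.05, its difference was 2.29 log2 (interval 0.67 to 3.91, adjusted p = 1.00). Probe set 1434310_at of the same gene differed by 0.034 log2.

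Acvr2a and Acvr2b encode type II receptors that bind activins and also serve BMPs. Acvr2a probe set 1437382_at read 249.9 and 283 with BMP-2, against 290.2 and 278 untreated, with overlap (-0.096 log2, interval -0.47 to 0.28). Its second probe set, 1451004_at, read 175 and 165 with BMP-2, against 153 and 71.8 untreated. Its untreated brightness is within the range of the tissue-restricted genes. The single low value of untreated replicate 2 made the difference of 1451004_at the widest among the 22 tested receptor probe sets. This difference was 0.70 ± 0.33 log2 (SE, interval -0.048 to 1.44, limma adjusted p = 1.00), 0.15 without untreated replicate 2 and 1.24 without untreated replicate 1. The 2 Acvr2a probe sets thus pointed opposite ways.

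Acvr2b probe set 1419140_at lay at the 87.2th percentile of all probe sets in untreated cells. It read 1232 and 1243 with BMP-2, against 1116 and 1345 untreated. The treated arrays lay between the untreated ones (0.014 log2, interval -0.25 to 0.27). Probe set 1439856_at read 386 and 332 with BMP-2, against 394 and 272 untreated, again with overlap (0.13 log2, interval -0.31 to 0.57). Probe set 1440525_at was not tested, at 101 and 23.1 with BMP-2 against 36.0 and 94.2 untreated.

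Neither co-receptor passed the test, with positive differences for the tested probe sets of Eng and negative ones for those of Rgmb. Eng encodes endoglin, a co-receptor that binds BMP9 and TGF-beta and is best known as a marker of endothelium. Probe set 1417271_a_at read 541 and 695 with BMP-2, against 548 and 655 untreated, so replicate 2 was higher in both groups (0.033 log2, interval -0.32 to 0.38). Probe set 1432176_a_at read 292 and 311 with BMP-2, against 227 and 306 untreated (0.19 log2, interval -0.23 to 0.61). Endothelial markers were checked beside it: of 8 genes 5 had a probe set above the limit on both untreated arrays, while Emcn, Erg and Tie1 did not. Their summed signal was 883 and 1090 with BMP-2, against 890.1 and 1022 untreated. In bulk RNA, fewer cells of a type and less RNA per cell cannot be told apart. The part of such cells in the Eng signal was not tested.

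Rgmb encodes a membrane-anchored co-receptor of the repulsive guidance family that binds BMP2 and BMP4. All 4 tested Rgmb probe sets had a negative difference, and the groups of 3 did not overlap. Probe set 1428429_at read 363 and 330.2 with BMP-2, against 372 and 374 untreated (-0.11 ± 0.15 log2, SE, interval -0.44 to 0.22). Probe set 1433586_at read 60.6 and 79.2 with BMP-2, against 85.2 and 87.5 untreated (-0.32 log2). Probe set 1433587_at read 58.0 and 47.8 with BMP-2, against 67.0 and 70.0 untreated (-0.38 log2). The last 2 probe sets were made from 1 sequence, and their brightness is within the range of the tissue-restricted genes. Probe set 1442811_at read 71.6 and 82.5 with BMP-2, against 90.8 and 78.0 untreated (-0.13 log2, overlapping). Its brightness is also within that range. The mean of the 4 was -0.23 log2 (interval -0.77 to 0.30, limma adjusted p = 1.00). The 2 other Rgmb probe sets were not tested, and the groups overlapped on both. Probe set 1459366_at read 37.1 and 67.2 with BMP-2, against 61.4 and 26.5 untreated. Probe set 1428430_at read 11.9 and 76.6 with BMP-2, against 22.5 and 45.7 untreated. In the fit without a filter their differences were 0.31 and -0.086 log2.

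The other genes of the pathway were read from lists, with each gene represented by its brightest tested probe set. Of 12 other receptors and co-receptors of the TGF-beta family 10 were tested, 5 higher and 5 lower, and 0 passed in limma, with 1 at an unadjusted p under 0.05 (median 0.0073 log2). That 1 was Bambi, at 0.59 log2 (interval 0.23 to 0.94). It read 517 and 589 with BMP-2, against 328 and 411 untreated. The bright ones were Tdgf1 (Cripto), the Nodal co-receptor, at -0.0081 log2, Tgfbr1, the type I receptor for TGF-beta, at 0.023, and Neo1, a receptor that binds repulsive guidance molecules, at 0.17. Of 22 tested proteins that bind or regulate the receptors, 13 were higher and 9 lower and 0 passed, with 1 at an unadjusted p under 0.05 (median 0.09 log2). Fkbp1a, which holds type I receptors inactive, differed by -0.016 log2.

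Of 11 tested ligands 5 were higher and 6 lower, of 7 tested secreted antagonists 3 were higher and 4 lower. In limma 0 of them passed, with 2 ligands and 1 antagonist at an unadjusted p under 0.05. Nodal differed by -0.19 log2, Gdf3 by -0.086 and Bmp4 by -0.37. Among 7 tested SMADs 6 were higher and 0 passed, with 3 at an unadjusted p under 0.05 (median 0.13 log2). Those 3 were Smad6 at 1.27 log2, Smad7 at 0.66 and Smad1 at 0.38. Smad6 and Smad7 missed the adjusted limma threshold of 0.05 but lay within the alternative threshold of 0.1. The remaining SMADs ran from -0.037 log2 (Smad2) to 0.13 (Smad3). Of 13 tested early BMP target genes 12 were higher and 1 lower, 3 rose (Id1, Id2 and Id3), and 10 had an unadjusted p under 0.05 (median 0.66 log2). These pathway lists share Bambi, Smad6 and Smad7 with one another, and Tdgf1 is also among the stem cell markers. The plot of pathway genes sets the receptors beside them.

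**Figure D4:**
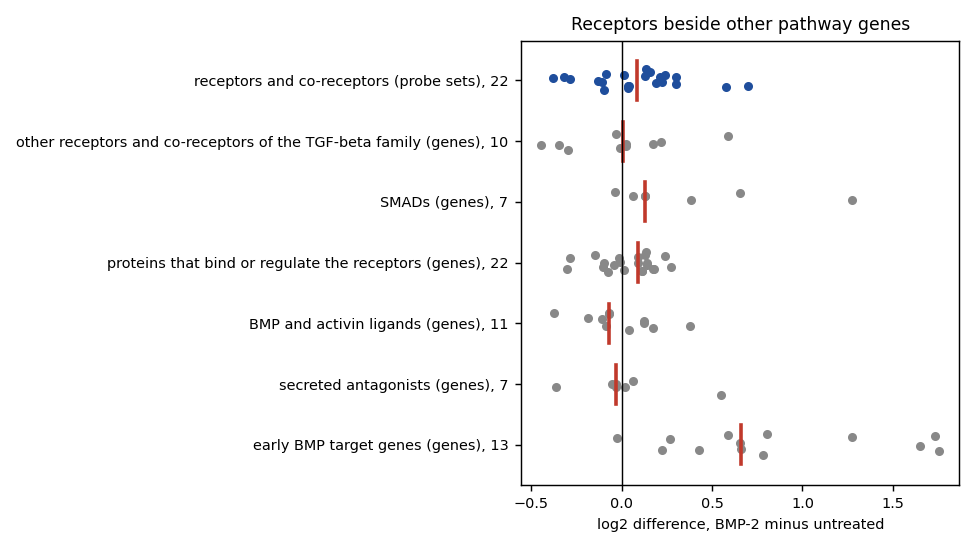
Log2 difference, BMP-2 minus untreated, as a point for each of the 22 tested receptor probe sets (top row) and for each tested gene of 6 other pathway lists, with the number in the label and the median as a vertical bar. The receptor median is 0.085 and that of the early BMP targets is 0.66, and vertical position within a row is random.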

How the data were processed

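The authors deposited 1 intensity per probe set and array, on a linear scale, and the submitters' processing notes name MAS5 with no version. Their 2%-trimmed mean was 500 on each array, so each array appears to have been scaled on its own. Low MAS5 signals are noisy on a log scale, and detection calls were not used here.

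Samples were grouped by their titles. Log2 signals were used without a pseudocount. Array medians lay within 0.21 log2 (limit 0.3), so no normalization was added. After 64 control probe sets were left out, 27022 of 45037 with a mean log2 signal above the 40th percentile (5.73) were tested with limma 3.58.1 in R 4.3.3 (lmFit, eBayes with an intensity trend), two-sided, with Benjamini-Hochberg adjustment over all of them and a threshold of 0.05. Residual degrees of freedom were 2, with 7.98 from the prior. The fit was also run on simulated data with known changes. The outcome of that run is not given here, and no statement above rests on it.

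Gene names come from the platform annotation, where 34945 probe sets have 1 symbol, 932 several and 9160 none; updating through gene identifiers changed 0 symbols. The text names all 10 receptor genes with every probe set, and of other lists the genes past the threshold or up to 3 of the highest signal. Bambi, Smad1, Smad6 and Smad7 were named besides for an unadjusted p under 0.05, after their values were seen. Other list genes at that level are not all named. The marker and tissue-restricted genes named as examples were picked after their values were seen. Members, lists and tests were chosen with earlier results of these data known. Alternatives tried were other normalizations (quantile, median centring), a pseudocount of 25.4, other filters, no trend, a replicate block, leaving out each array and an adjusted p of 0.1. Averaging the probe sets of a gene and a further signal limit were added after seeing the data.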

Additional observations from a re-analysis of the deposited data

How the results depend on the processing

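The count of 0 receptor probe sets past the threshold was the same under the 12 alternatives listed and after averaging the probe sets of each gene, and the smallest adjusted p of a receptor ran from 0.332 (Acvr1, without BMP-2 replicate 2) to 1.00. The receptor probe sets above the signal limit in untreated cells numbered 22, but 13 at the 60th percentile limit of 143, 13 above the 95th percentile of the tissue-restricted genes (173) and 13 above their highest signal without Lor (216, a limit set after seeing the data). With 1 untreated array left out the count was 23. Over all probe sets 5 were called, with 116 after median centring (72 higher, 44 lower), 8 with the filter at the 60th percentile, 0 without the intensity trend (1023 at an unadjusted p under 0.05), where the calls of Id1, Id2 and Id3 were among those lost, 11 at an adjusted p under 0.1, and 15 to 140 when an array was left out, where a lone array is assumed to vary like the other group. With the replicate number as a block 11 were called and 0 receptors, with 3 receptors at an unadjusted p under 0.05 (smallest adjusted p 0.863). Deviations of arrays with the same number correlated at 0.15 over probe sets, from 2 pairs whose labels share only a number. Over tested probe sets the SD of the log2 difference was 0.345 (replicate 1) and 0.353 (replicate 2) between arrays of the same number. It was 0.373 between the BMP-2 arrays and 0.370 between the untreated arrays. Median signals also lay closer by number, at 81.8 and 82.5 for replicate 1 and 94.9 and 94.6 for replicate 2. What the number stands for was not tested. The difference changed sign for 7 of the 22 receptor probe sets, in each case when 1 array was left out, and kept its sign for 15. Of those 15, 13 moved by over 1.5 times when an array was left out, for example between 0.087 and 0.52 log2 for Acvr1 (1448460_at), 0.12 and 0.49 for Bmpr1a (1451729_at), -0.51 and -0.12 for Rgmb (1433586_at) and -0.19 and -0.0074 for Acvr2a (1437382_at). The other 2 were Bmpr1a 1425492_at (0.20 to 0.28) and 1425493_at (0.17 to 0.26). For the 7 the ranges were -0.15 to 0.21 and -0.023 to 0.41 log2 for Eng (1417271_a_at and 1432176_a_at), -0.63 to 0.065 for Acvr1 (1416787_at), -0.088 to 0.17 for Acvr1b (1422098_at), -0.12 to 0.15 and -0.14 to 0.40 for Acvr2b (1419140_at and 1439856_at) and -0.092 to 0.16 for Bmpr2 (1434310_at). The filter left 10 dim receptor probe sets untested.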
